A study of Mus musculus with 20 samples.

Results

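Skin given electrons at conventional dose rate (CONV) was compared with skin of sham-treated mice. The comparison rests on 6 of the 20 libraries of the series, chosen by their record titles: 3 CONV and 3 sham. All came from the left hindlimb of wild-type C57BL/6J mice, collected 70 days after treatment, and all belonged to the same batch. CONV limbs received 35 Gy of electrons from an ElectronFlash linear accelerator set to conventional modality, and sham limbs were not irradiated. A further 4 skin libraries came from limbs given the same dose at ultra-high dose rate (FLASH), entered the same model fit and are shown beside the others. Age and sex were not given in the sources used here. Replicates are numbered within a group but are not stated to be separate animals, and a p-value here reflects only how far these libraries scatter, some of which may be technical.

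The epidermis is a layered epithelium. Its basal cells divide, its suprabasal cells make keratins and the cornified barrier, and after injury keratinocytes switch to a separate set of keratins, small proline-rich proteins and alarmins. Below it, dermal fibroblasts deposit collagen, and proteases with their inhibitors remodel it. High radiation doses to skin are known for late inflammation, ulceration and fibrosis. In wounded skin, ligands of the epidermal growth factor (EGF) receptor act on keratinocytes, and chemokines, interleukin-1 and interleukin-6 type cytokines draw in and activate neutrophils and macrophages.

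Stretches of promoter are printed for genes that the results below turn on, chosen because they carry a match to a motif of AP-1 or of NF-kappaB, transcription factors of stress and inflammation. They come from RefSeq on the mouse assembly GRCm38.p6, read 5′ to 3′ on the strand of the gene, here the plus strand, with the match in capitals. For the chemokine genes Cxcl1, Cxcl2 and Cxcl3, which lie close together on chromosome 5, and for the cytokine gene Il6, capitals mark GGGNNNTTCC on either strand.
Cxcl1, chr5:90891150-90891209: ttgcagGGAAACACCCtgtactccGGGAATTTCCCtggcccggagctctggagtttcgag
Cxcl2, chr5:90903796-90903855: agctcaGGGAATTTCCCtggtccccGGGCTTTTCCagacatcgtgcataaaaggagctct
Cxcl3, chr5:90786026-90786085: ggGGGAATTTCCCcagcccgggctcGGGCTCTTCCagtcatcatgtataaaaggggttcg
Il6, chr5:30013045-30013104: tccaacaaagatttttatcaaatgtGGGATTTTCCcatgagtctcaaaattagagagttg
For the protease receptor gene Plaur, the Schlafen gene Slfn4 and the protease genes Mmp3, Mmp10 and Mmp13, which share a cluster on chromosome 9, capitals mark TGANTCA, which reads the same on both strands.
Plaur, chr7:24462387-24462446: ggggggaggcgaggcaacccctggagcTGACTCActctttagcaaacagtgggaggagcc
Slfn4, chr11:83175125-83175184: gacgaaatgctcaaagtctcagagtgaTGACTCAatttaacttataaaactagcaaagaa
Mmp3, chr9:7445749-7445808: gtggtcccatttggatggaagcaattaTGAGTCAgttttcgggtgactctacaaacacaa
Mmp10, chr9:7502252-7502311: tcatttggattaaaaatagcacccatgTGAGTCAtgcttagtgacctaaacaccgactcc
Mmp13, chr9:7272452-7272511: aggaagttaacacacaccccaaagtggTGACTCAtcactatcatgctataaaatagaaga
Within the 250 bases before the start site, TGANTCA occurred in 6.75% of 32851 RefSeq mouse promoters and GGGNNNTTCC, on either strand, in 4.65%. Overlapping matches were counted once per promoter. Of 13 matrix metalloproteinase and inhibitor genes tested, 11 had a promoter entry and 4 of those held TGANTCA (Mmp3, Mmp10, Mmp12 and Mmp13). Of 18 CXC chemokine and receptor genes, 14 had an entry and 4 held GGGNNNTTCC (Cxcl1, Cxcl2, Cxcl3 and Cxcl10). GGGNNNTTCC was in 0 of the 11 metalloproteinase and inhibitor entries, and TGANTCA in 2 of the 14 chemokine entries. For the other lists searched, the counts are given as TGANTCA, then GGGNNNTTCC. Injury genes gave 5 and 0 of 18 entries, and neutrophil genes 2 and 1 of 20. The interleukin-6 family gave 3 and 1 of 10, and fibrillar collagens 0 and 0 of 5. Plasminogen activation and endothelial activation genes each gave 2 and 0 of 4. A match of letters is a description of these windows and not a bound site.

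The 10 skin libraries held between 24396463 and 33250762 estimated counts. Keratinocyte genes were high throughout, with Krt5, a basal keratin, between 1962 and 5799 CPM (estimated counts scaled to library size with TMM factors) in the 10 libraries, so the tissue label matched its defining markers. Other tissue was present in uneven amounts. A list score, the mean log2 CPM of the members, was 10.22 for skeletal muscle genes in sham library 1 and 1.30 and 6.72 in sham libraries 2 and 3, against 4.10 to 7.57 in CONV. The hair shaft score ran from -2.41 to 7.42 in sham and from 2.89 to 7.51 in CONV. In 2 skin records the file carried the library name of another record: sham library 3 was named as a FLASH library and FLASH library 1 as a sham library. No CONV file was affected, and results are given by record, with the assignment by library name beside them.

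No single gene passed the test between CONV and sham. edgeR's quasi-likelihood test called 0 of 20026 genes (0.00%) at an adjusted p of 0.05, and the smallest adjusted p was 0.127, shared by 416 genes. Without adjustment, 2407 genes (12%) were higher and 1628 (8.13%) lower in CONV at p under 0.05. DESeq2, run on the same counts, called 1574 genes of the whole table, 1174 of them higher. Among the 20026 genes, DESeq2 called 5.68% higher and 1.97% lower. All 3 CONV libraries lay above all 3 sham libraries in 13.6% of genes and below them in 14.3%. By library name these shares were 16.6% and 18.1%, and 2556 higher and 2756 lower genes were free of overlap both ways. An exact permutation test of 3 against 3 libraries cannot go below a two-sided p of 0.1. The count of 0 depended on single libraries: it was 406 without CONV library 1, 89 without FLASH library 4 and 1 without CONV library 3. The biological coefficient of variation was 0.428.

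The 10 higher protein-coding genes with the smallest p, free of overlap and at 5 CPM or more in CONV on average had log2 fold changes between 1.36 and 4.70. Plaur (ENSMUSG00000046223), which encodes the urokinase receptor and whose promoter is shown above, was at 3.42, 4.18 and 3.54 CPM in sham and at 25.6, 74.1 and 115 CPM in CONV. Its log2 fold change was 4.27 ± 0.66 (SE, n = 3 and 3, edgeR adjusted p = 0.127), where the choice of genes required that the groups did not overlap. Slfn4 (ENSMUSG00000000204), a Schlafen gene of mouse myeloid cells, was at 3.08, 1.83 and 2.43 CPM in sham and 17.2, 81.1 and 92.5 CPM in CONV. Clec4e (ENSMUSG00000030142), which encodes the pattern receptor Mincle, was at 1.39, 1.60 and 1.76 CPM in sham and 13.4, 33.1 and 65.2 CPM in CONV. In each of these genes CONV library 1 was the lowest of its group. Hdc (ENSMUSG00000027360), the enzyme that forms histamine, was at 5.11, 4.43 and 3.45 CPM in sham against 35.3, 112 and 149.7 CPM in CONV. Cd300lf, an inhibitory receptor gene of myeloid cells, had a log2 fold change of 3.56 ± 0.61 and overlaps Rab37 on the opposite strand.

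The remaining higher genes had log2 fold changes between 1.36 and 2.19. Mrc2 (ENSMUSG00000020695), which encodes an endocytic receptor for collagen, was at 30.8, 28.5 and 35.1 CPM in sham and 65.9, 124 and 179 CPM in CONV. Slc20a1, a phosphate transporter gene, was at 27.9, 32.3 and 31.4 CPM in sham and 60.7, 83.7 and 91.6 CPM in CONV. The tendon transcription factor gene Mkx (log2 fold change 1.36 ± 0.23), the G protein subunit gene Gng11 (2.19 ± 0.35) and Vcam1 (1.61 ± 0.27), an adhesion molecule gene of activated endothelium, completed the list. All 10 had an edgeR adjusted p of 0.127, and in each the 3 CONV libraries exceeded the 3 sham libraries by record and by library name. Promoter entries existed for 6 of the 10, and 2 of these, Plaur and Slfn4, held TGANTCA.

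The 10 lower genes chosen by the same rule had log2 fold changes between -2.49 and -1.10. Rad51b (ENSMUSG00000059060, chromosome 12, 79297282 to 79814690, plus strand), which acts in repair of DNA breaks, was at 7.66, 7.80 and 8.46 CPM in sham. In CONV it was at 4.24, 3.65 and 3.25 CPM, a log2 fold change of -1.10 ± 0.20 (SE, n = 3 and 3, edgeR adjusted p = 0.127). Ifnk, which encodes the interferon that keratinocytes make, was at 5.14, 5.12 and 4.82 CPM against 1.56, 1.04 and 1.25 CPM. It lies within the span of another of the 10 genes, Mob3b, on the opposite strand, and the files do not state whether strand was used in counting. Irf4 (ENSMUSG00000021356), a transcription factor gene of lymphocytes, dendritic cells and pigment cells, was at 40.8, 33.9 and 35.9 CPM in sham and 9.88, 8.15 and 6.17 CPM in CONV. As with the higher genes, separate groups were a condition of the choice. Bmp4, a ligand with roles in the hair follicle and dermis, was at 33.6, 41.5 and 32.7 CPM against 21.8, 11 and 14.1 CPM. Tfap2b, a transcription factor gene, was at 158, 182 and 134 CPM against 93.1, 67.9 and 47.9 CPM. The others were Efcab1, Fam221a, Mob3b, Cttnbp2 and H2-M5, with log2 fold changes between -2.49 and -1.41. None of the 9 with a promoter entry held either motif.

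**Figure D1:**
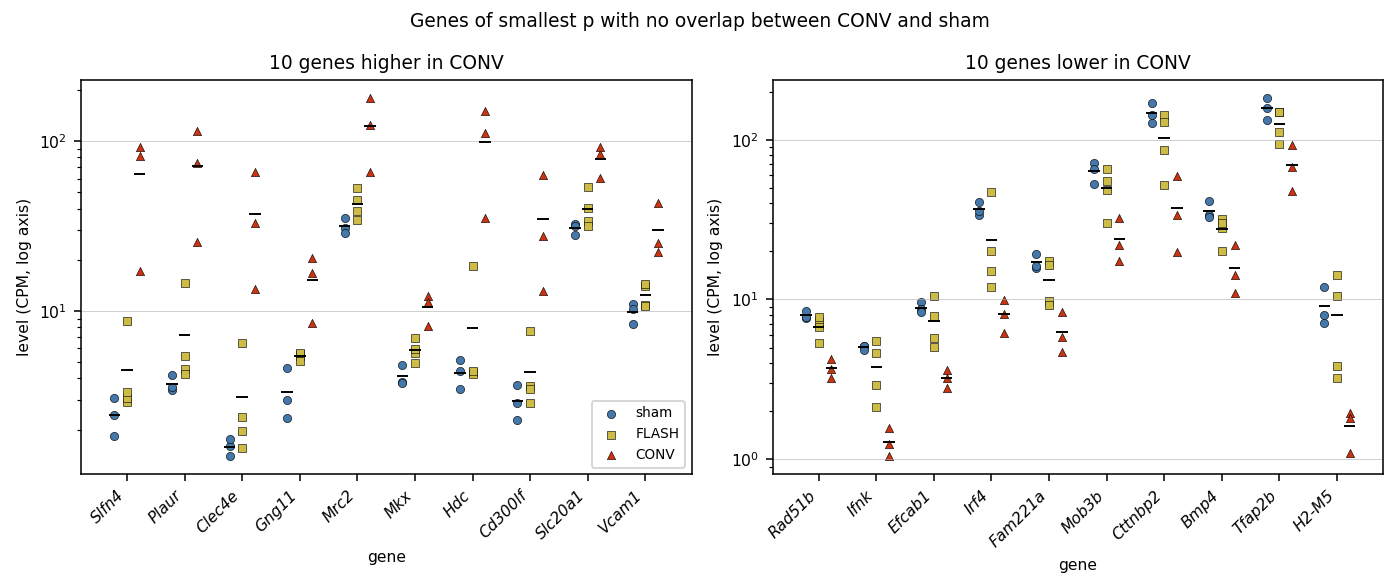
Levels of the 20 genes named by p, on a log axis in CPM, with 1 point per library (circles sham, squares FLASH, triangles CONV) and a line at each group mean. CONV and sham do not overlap in any of the 20 genes, which the choice of genes required; the FLASH library nearest to CONV is in most higher genes library 4, as in Hdc at 18.4 CPM.

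Most genes of injured epidermis were higher in all 3 CONV libraries than in any sham library, at levels that differed widely between members. Of 30 listed injury keratins and epidermal alarmins 27 were tested. All 27 were higher, 25 of them without overlap against 13.6% of all genes. DESeq2 called 18 higher, against 5.68% of all genes. Some members, among them Sprr2d, Lce3b and Il24, had few or no sham counts and entered the test through their CONV counts. Such members could hardly come out lower, so their direction is no separate support. The list median was 6.60 on the log2 scale, against 0.01 over all genes tested, of which 50.6% had a log2 fold change above 0. Krt6a (ENSMUSG00000058354), a keratin that keratinocytes make after wounding, was at 42.7, 120.1 and 84.9 CPM in sham and 2722, 6047 and 2646 CPM in CONV. Its partner Krt16 was at 5.89, 14.3 and 15.8 CPM against 2505, 8918 and 1263 CPM. Krt6b was under 1 CPM in every sham library and at 2228, 6205 and 940.0 CPM in CONV. The groups did not overlap in any of the 3 keratins, with edgeR adjusted p of 0.129 to 0.139. Krt6a and Krt6b are near-identical copies, so their split is uncertain, and the same holds within the Lce3, Sprr2 and Stfa families.

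Some members had no counts in sham. Sprr2d, which encodes a small proline-rich protein of the cornified envelope, gave no sham counts, and CONV was at least 900-fold higher against a floor of 3 counts over the sham group. On the same basis Lce3e, a late envelope gene induced by barrier damage, was at least 547-fold and Sprr2e at least 150-fold higher. These 3 genes were named after their values were seen, for their lack of sham counts, and with them at their bounds the list median was still 6.60. Il24, a cytokine of the interleukin-10 family made by keratinocytes, was at 0, 0 and 0.0638 CPM in sham and 8.82, 2.65 and 20.3 CPM in CONV. Intervals and floors of this kind cover counting error only. Because whole skin was sequenced, more cells of a type and more RNA per cell cannot be told apart, here and in every result below.

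Resident epidermal genes did not follow one direction. Krt14, the basal keratin, was at 738, 834 and 1568 CPM in sham and 3961, 18398 and 2730.1 CPM in CONV, while Krt5, its partner, overlapped between the groups. Krt15, a keratin of resting basal cells and of the hair follicle bulge, was at 803, 736 and 788 CPM in sham and 221, 289 and 32.3 CPM in CONV. Trp63, which encodes the transcription factor p63 of basal keratinocytes, was at 633, 668 and 677 CPM against 527, 355 and 396 CPM. Within the 9 basal genes 2 lay above and 2 below sham without overlap, against 13.6% and 14.3% of all genes. The list median was 0.17. That median was 0.44 without CONV library 1, 0.29 without sham library 3, 0.08 without sham library 2 and -0.04 without CONV library 2.

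Differentiation genes depended on the library. Lor, which encodes loricrin, the main cornified envelope protein, was at 241, 248 and 349 CPM in sham and 254, 251 and 10.9 CPM in CONV. Krt10, the suprabasal keratin, was at 2685, 2404 and 3664 CPM against 4536, 9130.1 and 294 CPM. Filaggrin (Flg), which bundles keratin in the granular layer, was at 298, 345 and 1014 CPM against 4228, 12612 and 276 CPM. CONV library 3 was thus below all sham libraries in Lor, Krt10 and Flg, and CONV library 2 was above all sham libraries in Krt10 and Flg. Of 24 cornified envelope and barrier genes, 1 lay above and 1 below sham without overlap, which is fewer than the 13.6% and 14.3% of all genes. The median of this list was 0.61, or 1.04 without CONV library 3 and -0.02 without CONV library 2. For the 9 suprabasal genes it was 0.29, and 0.73, 0.06 and -0.27 without CONV libraries 3, 1 and 2. Of these 9 genes 0 lay above and 2 below sham without overlap.

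**Figure D2:**
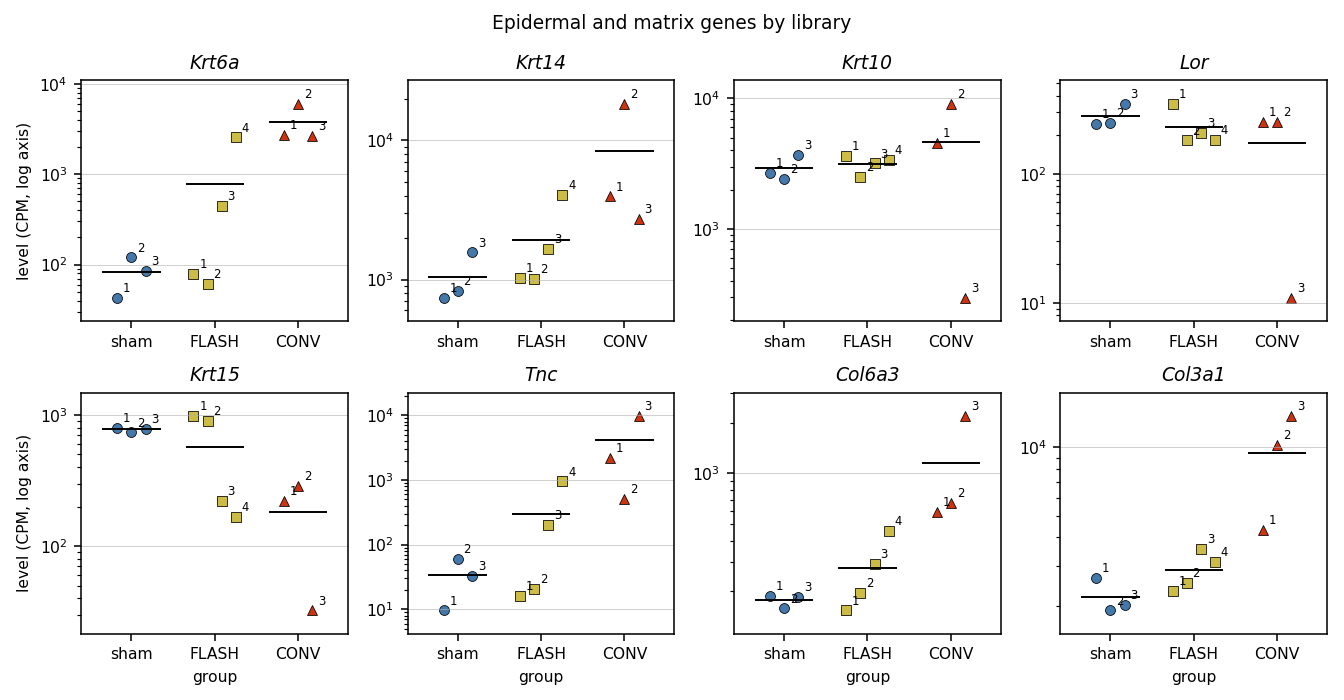
Levels of 5 epidermal and 3 matrix genes by library, on log axes in CPM; points carry the replicate number and lines are group means. CONV library 3 is lowest of all in Krt10 (294 CPM) and Lor (10.9 CPM) and highest of all in Tnc (9751 CPM), while CONV library 2 is highest in Krt14 (18398 CPM).

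Several ligand genes of the EGF receptor lay above sham in CONV, and the receptor genes overlapped. Areg, which encodes amphiregulin, was at 1.09, 4.43 and 2.46 CPM in sham and 40.0, 18.4 and 28.2 CPM in CONV. Hbegf, which encodes the heparin-binding ligand that drives keratinocyte migration, was at 14.6, 9.07 and 5.90 CPM against 64.4, 75.4 and 84.3 CPM. Epgn, which encodes epigen, was at 2.18, 7.36 and 3.93 CPM against 54.6, 12.5 and 44.0 CPM. These 3 groups did not overlap, nor did those of Tgfa, and edgeR adjusted p ran from 0.127 to 0.164. Ereg, which encodes epiregulin, overlapped by record at 26.9, 33.7 and 62.0 CPM against 81.3, 58.2 and 72.0 CPM. Betacellulin (Btc), named after its values were seen, stood on the other side at 70.8, 65.6 and 81.5 CPM in sham and 28.1, 19.7 and 8.71 CPM in CONV. The receptor genes Egfr, Erbb2 and Erbb3, also named after their values were seen, all overlapped between the groups. Over the 10 genes 4 were above and 1 below without overlap, against 13.6% and 14.3% of all genes. Their median was 0.27, or 0.52 without sham library 3 and 0.45 without CONV library 2, and ran from 0.17 to 0.52 over all alternatives.

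Most neutrophil genes were higher in all 3 CONV libraries than in any sham library. Of 22 tested among 25 listed, 21 were higher, 18 of them without overlap, against 13.6% of all genes. DESeq2 called 15 higher, against 5.68% of all genes. The median was 5.32 and was the same with its 2 members without sham counts at their bounds. Members with few or no sham counts, such as Treml4 and Stfa2l1, entered the test through their CONV counts and could hardly come out lower. Slfn4 and Clec4e, also on this list, had already been chosen for lack of overlap. S100a8 and S100a9 encode the subunits of calprotectin, an alarmin of neutrophils and of injured keratinocytes. S100a8 was at 0.375, 0.719 and 0.160 CPM in sham and 54.6, 360.0 and 198 CPM in CONV, and S100a9 was at 0.113, 0.0553 and 0.160 CPM against 23.9, 121 and 112 CPM. Csf3r, the receptor for granulocyte colony-stimulating factor, was at 1.80, 1.13 and 1.95 CPM against 35.2, 38.7 and 165 CPM. Treml4, a myeloid receptor gene, and Stfa2l1, a stefin gene named after its values were seen, had no counts in sham, and were at least 86-fold and at least 125-fold higher in CONV. Mpo, of early neutrophil granules, stayed low, at 1.58, 1.27 and 1.15 CPM in sham and 1.45, 1.18 and 1.99 CPM in CONV. Camp, another granule gene, overlapped as well, between 0.382 and 1.24 CPM in the 6 libraries. Both were named after their values were seen.

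In the interleukin-1 family a cytokine, an inflammasome sensor and a receptor stood apart. Il1b was at 3.57, 2.13 and 1.21 CPM in sham and 59.5, 140.1 and 284 CPM in CONV. Nlrp3, the sensor of the inflammasome that leads to cleavage of pro-interleukin-1 beta, was at 1.13, 0.692 and 0.670 CPM against 7.59, 60.2 and 49.0 CPM. Il1rl1, which encodes the receptor for interleukin-33, was at 14.8, 11.9 and 9.74 CPM against 205, 34.4 and 282 CPM. Il1a and the antagonist gene Il1rn overlapped by record and not by library name. By record 5 of 13 members lay above sham without overlap and 1 below, against 13.6% and 14.3% of all genes. The list median was 0.71 (0.47 without CONV library 3). Il18r1, part of the interleukin-18 receptor and named after its values were seen, was the single member below, at 30.9, 23.4 and 23.9 CPM against 14, 17.2 and 14.8 CPM.

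In the interleukin-6 family 3 ligand genes and a feedback gene lay above sham without overlap, and other ligand genes overlapped. Il6 was at 0.0751, 0.249 and 0.160 CPM in sham and 11.3, 1.75 and 89.6 CPM in CONV. Osm, which encodes oncostatin M of neutrophils and macrophages, was at 0, 0.0830 and 0.223 CPM against 3.43, 15.5 and 21 CPM. Clcf1, a further ligand gene of the family, was at 6.31, 7.11 and 9.67 CPM against 51.1, 39.8 and 81.6 CPM. Socs3, the feedback inhibitor of this pathway, was at 37.8, 34.4 and 29.7 CPM against 69.5, 132 and 292 CPM, with no overlap in any of these 4 genes. Il6ra was at 206, 183 and 291 CPM against 105, 149 and 77.9 CPM, and Lifr was also below without overlap; both were named after their values were seen. Il11 and Lif overlapped, with CONV library 3 far above the rest. Of 12 members 5 were above, against 13.6% of all genes, and 2 below, a share near the 14.3% of all genes. Il6 and Osm, with few sham counts, entered the test through their CONV counts and could hardly come out lower. DESeq2 called 6 higher, against 5.68% of all genes, and the median of 1.13 was 0.35 without CONV library 3.

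**Figure D3:**
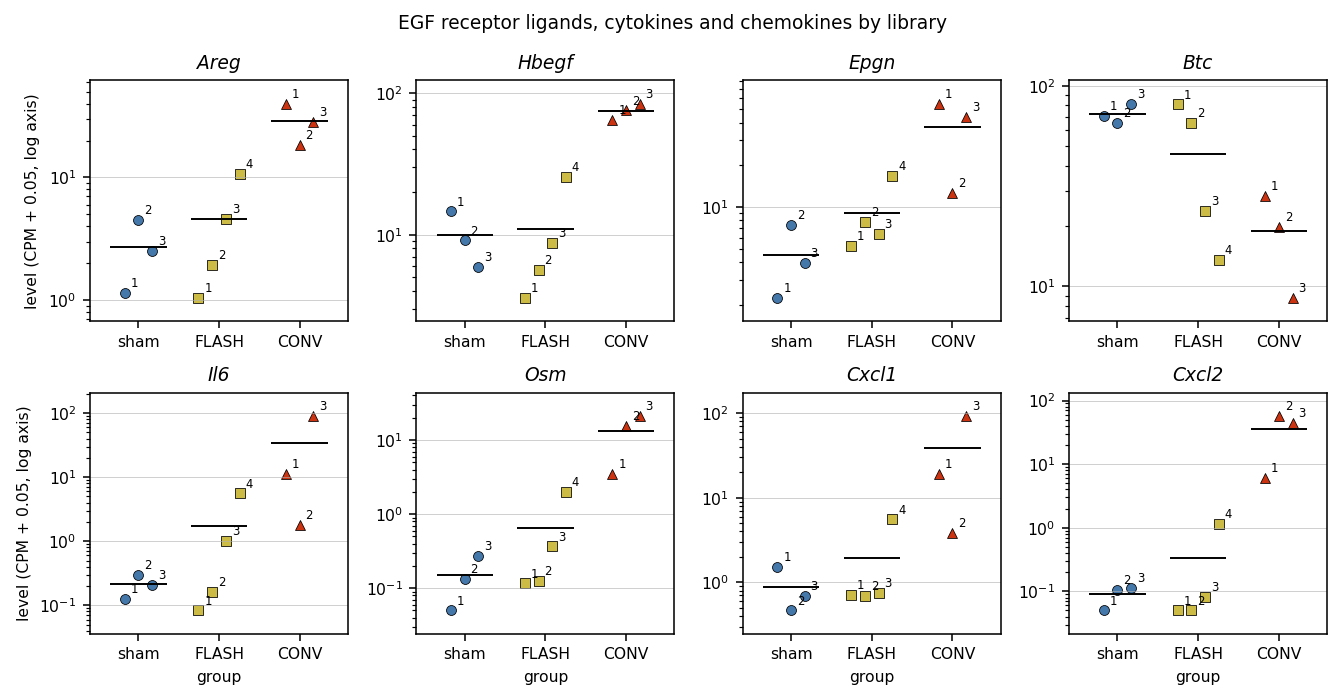
Levels of 4 EGF receptor ligand genes, 2 interleukin-6 family genes and 2 chemokine genes by library, plotted as CPM + 0.05 on log axes; points carry the replicate number and lines are group means. Btc is below sham in all 3 CONV libraries (8.71 to 28.1 CPM) while the other 7 genes are above, and Il6 and Cxcl1 are lowest in CONV library 2.

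Several chemokines that attract neutrophils lay above sham, and their order among the CONV libraries differed. Cxcl2 was at 0, 0.0553 and 0.0638 CPM in sham and 5.95, 56.9 and 44.3 CPM in CONV. Cxcl3 was at 0.526, 0.304 and 0.638 CPM against 1.68, 18.1 and 20.4 CPM. Cxcl1, whose promoter carries the same kind of match, was instead lowest in CONV library 2, at 18.9, 3.79 and 92.2 CPM against 1.46, 0.415 and 0.638 CPM. Cxcl5 had the order of Cxcl1, at 71.0, 17.1 and 277 CPM in CONV and 7.66 to 16 CPM in sham. Cxcr4, the receptor for Cxcl12, was at 5.37, 4.70 and 6.93 CPM against 23.6, 27.6 and 46.6 CPM. Chemokines induced by interferon gamma overlapped: Cxcl9, named after its values were seen, was at 3.45, 5.06 and 2.94 CPM in sham and 2.33, 3.22 and 24 CPM in CONV. Of 18 members 6 were above sham without overlap, against 13.6% of all genes, and the median was 1.34 (0.48 without CONV library 3). Cxcl2, with few sham counts, entered the test through its CONV counts and could hardly come out lower.

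Among CC chemokines and receptors 9 of 24 were above sham, against 13.6% of all genes, and 3 below, which is no more than the 14.3% of all genes. Ccl2, which attracts monocytes, was at 1.61, 1.47 and 0.894 CPM in sham and 14.7, 2.32 and 58.5 CPM in CONV. Ccl3 and Ccl4, macrophage inflammatory proteins, were highest in CONV library 2, with Ccl3 at 0.534, 29.1 and 8.2 CPM in CONV and 0.0319 to 0.188 CPM in sham. Both had few sham counts, entered the test through their CONV counts and could hardly come out lower. Ccr1, a receptor for Ccl3 on neutrophils and monocytes, was at 2.74, 1.66 and 0.766 CPM against 19.7, 25.7 and 77.6 CPM. The 3 members below, named after their values were seen, were Ccl24, Ccl27a and Ccr4. Ccl27a, a keratinocyte chemokine that draws T cells to resting skin, was at 36.3, 32.4 and 57.9 CPM against 13.7, 17.3 and 7.39 CPM. Ccr4, a homing receptor of skin T cells, was at 28.2, 20.5 and 29.6 CPM against 9.43, 13.2 and 5.50 CPM. The median of the list was 1.38, or 0.75 without CONV library 3 and 0.5 over the members with at least 1 CPM in 3 libraries.

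Targets of NF-kappaB differed among themselves. Tnf was at 0.751, 1.85 and 1.28 CPM in sham and 2.06, 11.3 and 11 CPM in CONV, so that CONV library 1 lay just above the highest sham library. Bcl3, a nuclear partner of NF-kappaB, was at 4.73, 5.73 and 6.99 CPM against 29.1, 37.1 and 78.1 CPM. The feedback genes Nfkbia, at 123, 109 and 94.4 CPM against 74.2, 116 and 152 CPM, and Tnfaip3 overlapped. Of 15 members 6 were above without overlap, against 13.6% of all genes, and the median of 0.83 was 0.51 without CONV library 3.

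Nearly all collagen genes tested stood above sham in all CONV libraries, and the fibrillar score was 9.42, 10.05 and 10.84 in CONV libraries 1, 2 and 3. Col1a1, the main chain of type I collagen, was at 3191, 3069 and 3816 CPM in sham and 5325, 11876 and 16936 CPM in CONV. Col3a1, of type III collagen, was at 2647, 1902 and 2011 CPM against 4332, 10218 and 13748 CPM. Col5a2, of the type V collagen that starts fibrils, was at 188, 126 and 119 CPM against 415, 709.9 and 1420.4 CPM. All 7 fibrillar collagens tested were above sham without overlap, against 13.6% of all genes. DESeq2 called 6 of them higher, against 5.68% of all genes, and their median was 2.11. The other collagens gave 11 of 12 without overlap and a median of 1.93; Col7a1, of anchoring fibrils and named after its values were seen, overlapped. Col6a3, of the beaded filaments around cells, was at 189, 158 and 184 CPM against 594, 671 and 2188 CPM, and the basement membrane gene Col4a1 at 227, 172 and 152 CPM against 370.1, 554 and 1124 CPM. On the length-scaled level, type III collagen stood at a mean of 1123 TPM (the deposited length-scaled unit) in sham and 3940.3 TPM in CONV for Col3a1, next to 1209 and 3533 TPM for Col1a1.

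Most genes that process collagen were higher as well. P4ha1, a prolyl hydroxylase gene, was among the 4 that overlapped, at 39.0, 30.3 and 48.9 CPM against 32.1, 40.6 and 58.0 CPM. Loxl1, a lysyl oxidase that cross-links elastin, was at 27.4, 19.6 and 21.9 CPM in sham and 48.7, 91.4 and 204 CPM in CONV. Fkbp10, a collagen chaperone gene, was at 12.7, 12.8 and 15.0 CPM against 30.5, 44.2 and 116 CPM. Lox itself was at 131, 69.9 and 57.4 CPM against 146, 141 and 470.2 CPM, where sham library 1 came close to the CONV libraries. Of 16 such genes 12 were above sham without overlap, against 13.6% of all genes, and DESeq2 called 12 higher, against 5.68%. Their median of 1.44 was 0.77 without CONV library 3.

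Several matricellular genes were higher in CONV, with a wide spread between its libraries. Tnc, which encodes tenascin-C of wound edges, was at 9.57, 61.0 and 32.5 CPM in sham and 2167, 517 and 9751 CPM in CONV. Spp1, which encodes osteopontin, was at 1.28, 0.360 and 0.447 CPM against 20.5, 126 and 152 CPM. Postn, which encodes periostin, was at 378, 286 and 268 CPM against 893, 474 and 2693 CPM. Cthrc1, a gene of matrix-producing fibroblasts, was at 1.09, 0.941 and 1.05 CPM against 8.05, 9.38 and 14 CPM. CONV library 2 was lowest of its group in Tnc and Postn and in the inhibitor gene Timp1, at 27.3, 6.40 and 86.1 CPM against 0.138 to 0.263 CPM in sham. Timp1, with few sham counts, entered the test through its CONV counts and could hardly come out lower. Ccn2 (CTGF), a target of TGF-beta that was named after its values were seen, overlapped at 36.1, 32.4 and 15.3 CPM against 26.3, 18.6 and 34.3 CPM. Of 13 genes 8 were above without overlap, against 13.6% of all genes, and the median of 2.12 was 1.14 without CONV library 3. In the elastic fibre list 9 of 12 were above with a median of 1.31, among them Fbln2 (fibulin 2) at 72.3, 56.4 and 61.6 CPM against 215, 381 and 893 CPM.

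Collagenase and stromelysin genes were higher in CONV. Mmp13, an interstitial collagenase of mouse wounds, was at 0, 0.138 and 0.479 CPM in sham and 12.9, 39.0 and 155 CPM in CONV. Mmp3, stromelysin 1, was at 21.1, 14 and 10.9 CPM against 92.6, 73.4 and 836 CPM. Mmp10, stromelysin 2, named for its promoter and after its values were seen, was at 0, 0 and 0.0958 CPM in sham and 6.60, 8.53 and 48.5 CPM in CONV. These are the neighbours whose promoters are printed above. The membrane-bound Mmp14, at 142, 148 and 154 CPM against 253, 423 and 823 CPM, and the gelatinase gene Mmp2 were also free of overlap. Of 13 proteases and inhibitors 8 lay above sham, against 13.6% of all genes, and DESeq2 called 7 higher, against 5.68%. Mmp10, with few sham counts, entered the test through its CONV counts and could hardly come out lower. The median of the 13 genes was 1.76, and 1.17 without CONV library 3. In the plasminogen system, the activator gene Plau was at 37.1, 23.9 and 36.3 CPM against 39.3, 78.4 and 60.7 CPM, a much smaller difference than that of its receptor gene Plaur. Of 7 members of this system 3 were above, against 13.6% of all genes, with a median of 1.01 (0.61 without CONV library 3). Plaur, among the 3, had already been chosen for lack of overlap.

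Of the TGF-beta superfamily, activin subunits differed more than the TGF-beta ligands. Inhba, the activin A subunit induced in skin wounds, was at 12.9, 19.9 and 20.1 CPM in sham and 94.9, 66.4 and 429 CPM in CONV. Inhbb was at 17.9, 19.6 and 21.4 CPM against 36.2, 68.9 and 60.8 CPM. Tgfb1 was at 23.3, 33.4 and 36.2 CPM against 51.4, 69.1 and 122 CPM, all without overlap, whereas Tgfb2 and Tgfb3 overlapped. Skil, a feedback inhibitor of SMAD signalling, was at 71.9, 91.3 and 74.8 CPM against 140.2, 133 and 212 CPM. Of 16 genes 7 were above sham, against 13.6% of all genes, and the median of 0.48 was 0.13 without CONV library 3.

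Macrophage genes were higher in part. Cd14, the co-receptor for bacterial lipopolysaccharide, was at 2.82, 2.13 and 2.17 CPM in sham and 12, 123 and 76.5 CPM in CONV. C1qa, a complement gene of macrophages, was at 23.4, 16.3 and 16.9 CPM against 39.1, 78.4 and 110.4 CPM. Csf1r, the receptor on which macrophages depend, was at 57.2, 52.8 and 48.5 CPM against 67.3, 139.7 and 198 CPM, and Adgre1 (F4/80) overlapped. Of 15 markers 9 were above without overlap, against 13.6% of all genes. DESeq2 called 9 higher, against 5.68% of all genes, and the median was 1.65. Among genes of activated macrophages, Acod1, which makes itaconate, lacked counts in every sham library and was at 9.92, 57.5 and 83.3 CPM in CONV. Nos2, the inducible nitric oxide synthase, was at 1.46, 0.609 and 0.160 CPM against 1.03, 14.5 and 17.8 CPM, so CONV library 1 lay within the sham range. Arg1 was above sham in CONV libraries 1 and 2 and below it in library 3, at 39.8, 119.8 and 15.4 CPM against 22.9, 26.1 and 25.9 CPM. The median of the 10 genes was 2.25, the same with Acod1 at its bound. Of these genes 6 were above and 1 below sham, against 13.6% and 14.3% of all genes. Acod1 and Chil3, another gene of this list, had few or no sham counts. They entered the test through their CONV counts and could hardly come out lower.

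Vessel genes were highest in CONV library 3 among those shown. Selp, which encodes P-selectin, was at 6.91, 4.12 and 2.90 CPM in sham and 75.6, 15.4 and 198 CPM in CONV, and Sele (E-selectin) at 6.87, 3.35 and 1.79 CPM against 42.9, 7.11 and 107 CPM. Apln, a peptide gene of sprouting endothelium, was at 1.73, 2.32 and 1.47 CPM against 7.25, 12.5 and 22.8 CPM. In the list of endothelial activation 5 of 6 genes were above without overlap, against 13.6% of all genes, with a median of 2.85. Vcam1, among the 5, had already been chosen for lack of overlap. The general endothelial genes gave 5 of 12 and a median of 1.34, or 0.72 without CONV library 3. Pecam1 was at 93.1, 42.1 and 35.9 CPM against 98.8, 95.5 and 267 CPM, where sham library 1, the library rich in skeletal muscle genes, came close to CONV.

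**Figure D4:**
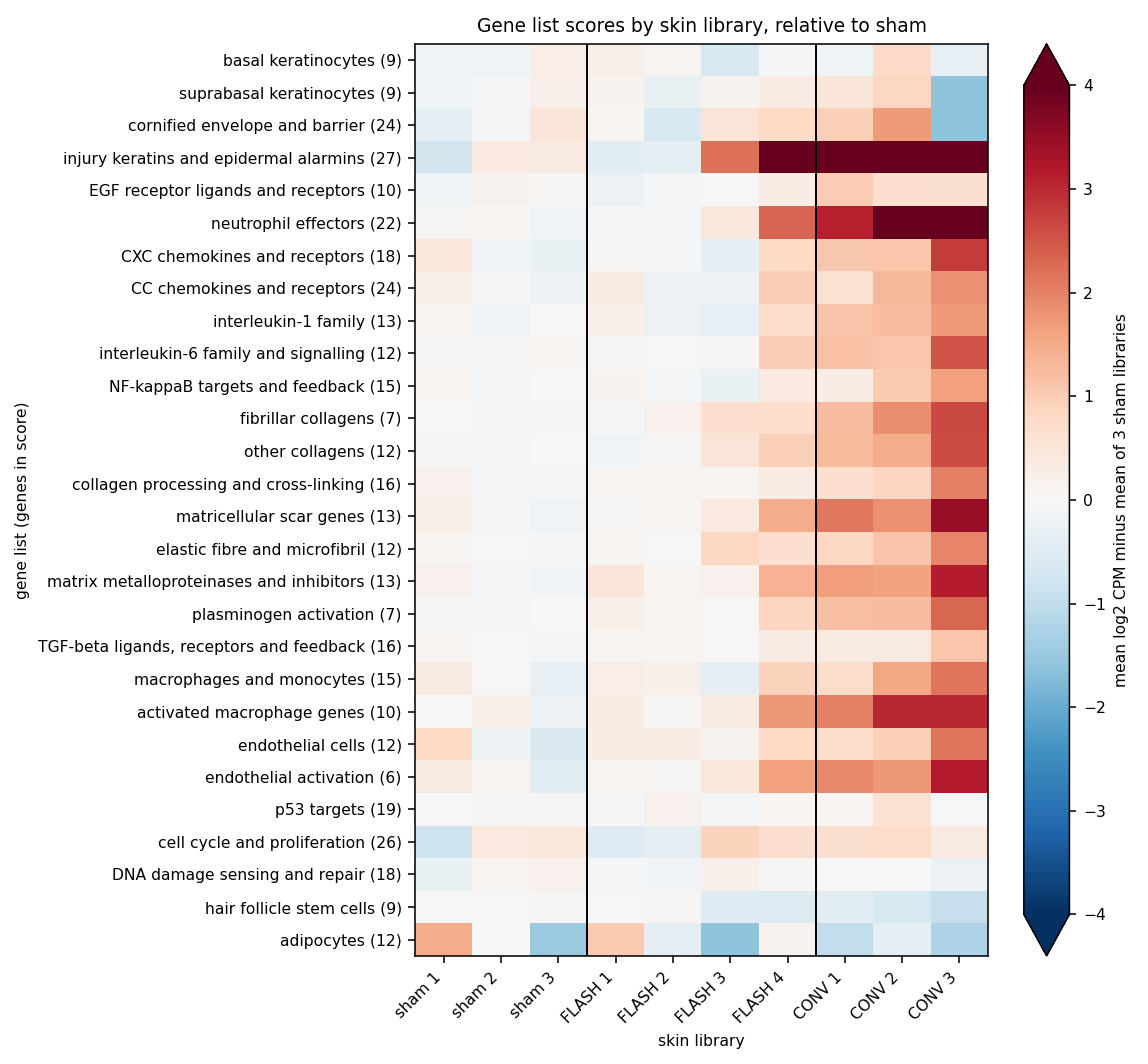
Scores of the 28 gene lists described (mean log2 CPM of the tested members, their number in brackets) in each of 10 skin libraries, shown as the difference from the mean of the 3 sham libraries and limited to 4 either way. The 3 CONV libraries are red for injury, neutrophil, cytokine and matrix lists, suprabasal and barrier scores are lowest in CONV library 3 (7.64 and 5.15), and FLASH library 4 is red for injury (4.77) and neutrophil genes (2.02).

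Most p53 target genes overlapped between the groups. Cdkn1a, the p53-induced inhibitor p21, was at 114, 192 and 207 CPM in sham and 228, 344 and 157 CPM in CONV, and Mdm2 also overlapped. Of 19 p53 targets 3 were above sham, a share near the 13.6% of all genes, and 1 below, against 14.3%. By library name 5 were above and 2 below, against 16.6% and 18.1% of all genes. The median of 0.30 was 0.08 without CONV library 2 and 0.15 with library totals alone. Bax was at 10.3, 15.7 and 18.1 CPM against 20.7, 32.2 and 29.3 CPM. Cdkn2a, a marker of senescence, was scarce. Its transcript Cdkn2a-202 had 2.0, 0 and 5.0 estimated counts in sham and 12.2, 22.5 and 15.0 in CONV, and Cdkn2a-201 had none in sham and 1.8, 6.5 and 0 in CONV. By record the gene was free of overlap, but by library name it was not, since FLASH library 1 held 14.4 counts of Cdkn2a-201 and stood at 0.560 CPM, above CONV libraries 1 and 3.

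Genes of sensors and repair factors were lower in part. Of 18 genes of DNA damage sensing and repair, 9 were below sham without overlap, against 14.3% of all genes, and 2 above, against 13.6%. Rad51b, among the 9, had already been chosen for lack of overlap. DESeq2 called 2 lower, against 1.97% of all genes, and the list median of -0.12 ran from -0.22 to -0.06 over all alternatives. Ddb2, which recognises ultraviolet lesions, was at 30.0, 24.2 and 25.8 CPM in sham and 15.5, 12.2 and 12.7 CPM in CONV. Trp53bp1, which encodes the break-repair factor 53BP1, was at 117, 129 and 115 CPM against 91.6, 81.7 and 78.4 CPM. Atm, the kinase that responds to DNA breaks, was at 81.1, 83.2 and 87.0 CPM against 69.9, 65.8 and 62.4 CPM, without overlap and with an edgeR adjusted p of 0.186. Chek1 and H2afx were the 2 members above, and H2afx was named after its values were seen. The cell cycle list had 9 of 26 members above sham, against 13.6% of all genes, but 0 higher at an unadjusted p under 0.05, against 12% of all genes, with Mki67 at 109.8, 304 and 279 CPM against 327, 202 and 214 CPM. Its median of 0.48 was 0.18 without sham library 1 and ran from 0.13 to 0.79 over all alternatives.

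Follicle stem cell genes were lower in part. Lgr6, a stem cell receptor gene of the upper follicle, was at 98.4, 104 and 163 CPM in sham and 57.2, 67.4 and 20.5 CPM in CONV. Fgf18, which holds follicles in their resting phase, was at 6.46, 5.20 and 7.6 CPM against 1.60, 1.75 and 0.482 CPM. Lgr5 was below sham by record, at 77.6, 87.3 and 64.0 CPM against 58.2, 34.1 and 34.8 CPM, but overlapped by library name. Sox9 overlapped in both assignments. Of 9 genes 3 were below, against 14.3% of all genes. Their median of -0.68 was -0.27 without sham library 1, -0.39 without sham library 3 and -0.29 by library name. All 12 adipocyte genes were lower, with 0 free of overlap by record and 7 by library name, against 14.3% and 18.1% of all genes. Plin1, of the lipid droplet, was at 247, 75.5 and 20.2 CPM in sham and 15.0, 40.6 and 12.4 CPM in CONV, and the median of -1.22 was -0.06 without sham library 1. Among the 6 sham and CONV libraries, sham library 1 was also highest in skeletal muscle genes and lowest in hair shaft genes. Fits with the hair shaft or the skeletal muscle score as covariate were among the alternatives, and each called 0 genes. How much of the result these tissues account for was not tested.

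**Figure D5:**
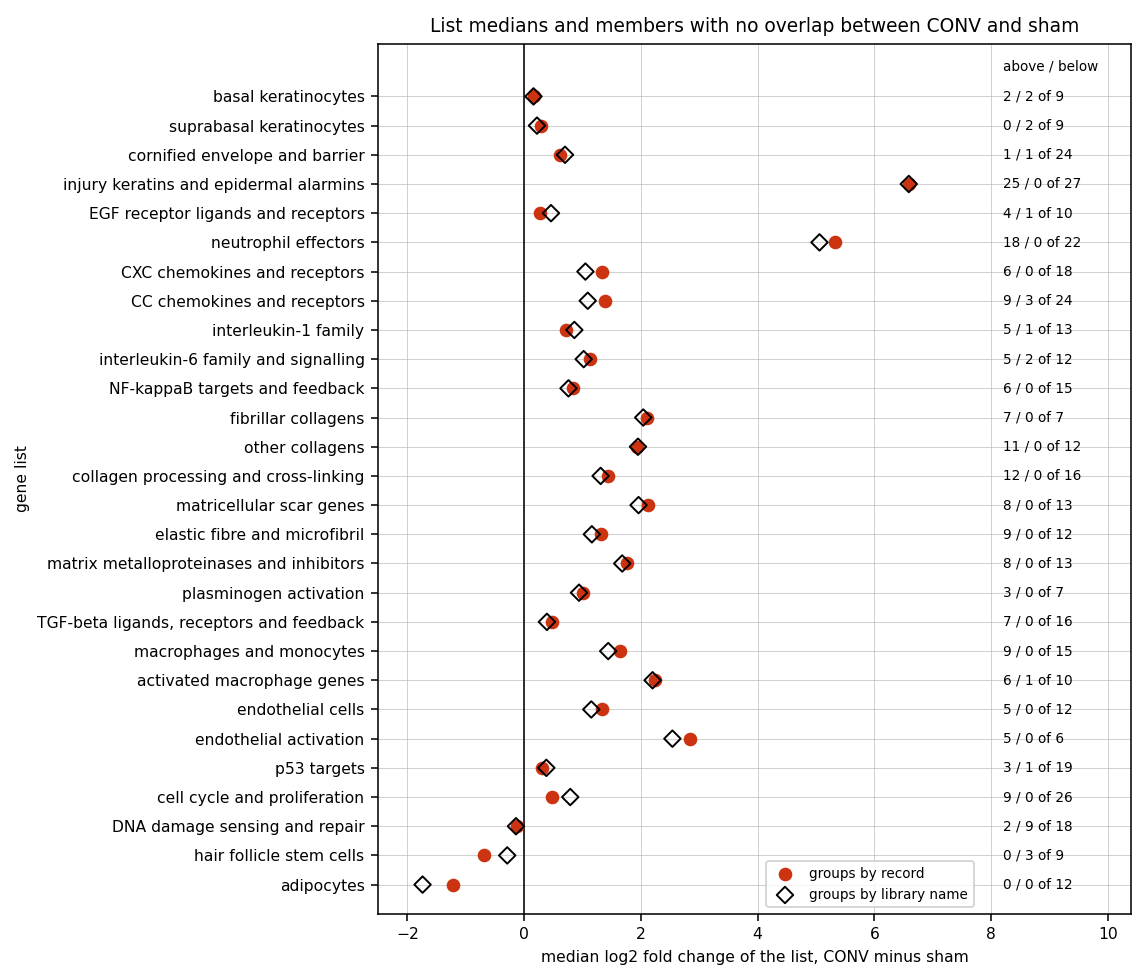
Median log2 fold change of CONV minus sham for each of the 28 lists, by record (filled circles) and by library name (open diamonds); the figures at the right count members above and below sham without overlap, by record. The medians run from -1.22 for adipocytes to 6.60 for injury keratins and alarmins, and the assignment by library name keeps the sign of each.

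The 3 CONV libraries were not alike. The barrier score was 7.71, 8.44 and 5.15 in CONV libraries 1, 2 and 3, against 6.37 to 7.22 in sham. The score of other collagens was 7.70, 7.90 and 9.02, against 6.38 to 6.48 in sham, so CONV library 3 was lowest in the former and highest in the latter. CONV library 2 had the highest injury score (6.20, against 4.83 and 4.42) and the lowest hair shaft score of its group (2.89, against 7.51 and 6.43). CONV library 3 had the highest scores for interleukin-6 family genes (6.86, against 5.52 and 5.45) and for matrix metalloproteinases (6.86, against 5.39 and 5.34). CONV library 1 was nearest to sham in neutrophil genes, at 2.80, against 4.13 and 4.73 in the other CONV libraries and at most -0.23 in sham. The skeletal muscle score was 7.23, 7.57 and 4.10, so among the CONV libraries the one with the most matrix held the least muscle. Sham library 2 had a lower skeletal muscle score still, 1.30, with a score of 6.38 for other collagens.

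The 4 FLASH libraries differed among themselves in how near they stood to CONV. Among the 2725 genes in which CONV was above sham without overlap, FLASH library 4 reached the lowest CONV level or more in 61.6% and FLASH library 3 in 32.1%. FLASH libraries 1 and 2 did so in 6.2% and 8.15%. Among the 2860 genes below sham, FLASH libraries 3 and 4 were at or under the highest CONV level in 53.5% and 66.4%, and libraries 1 and 2 in 3.64% and 8.71%. Krt6a was at 78.4, 61.4, 445 and 2556 CPM in FLASH libraries 1 to 4, and Krt15 at 981, 903, 221 and 166 CPM. FLASH library 3 was thus close to CONV in Krt15 and far from it in Krt6a. FLASH library 1 is the library whose file bears a sham name. Tissue scores differed between the FLASH libraries too. In FLASH libraries 1 to 4 the hair shaft score was -2.36, 0.54, 8.15 and 6.90. The skeletal muscle score was 6.43, 10.35, 6.56 and 3.33. The part of these tissues in the positions was not tested. These positions are a description, with no test of CONV against FLASH.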

How the data were processed

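Total RNA was extracted with TRIzol from frozen skin and sequenced from a stranded kit with ribosomal RNA removal, per the labels' protocols. The authors deposited kallisto estimated counts and TPM values for each transcript (kallisto 0.5.0 and mm10, per the submitters' processing notes); TPM is scaled to transcript length and library. The annotation release and the use of strand are not given in the sources used here. Of 116116 transcripts, 114322 (98.5%) matched a gene by identifier, and the unmatched transcripts, with 0.873% to 1.85% of each library's counts, were not used.

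Gene totals of the estimated counts were rounded to whole numbers. edgeR 4.0.16 in R 4.3.3 fitted all 10 skin libraries together (TMM scaling, filterByExpr, robust quasi-likelihood test), with CONV minus sham as the contrast and Benjamini-Hochberg adjustment over 20026 genes. DESeq2 1.42.0 and limma 3.58.1 served as alternatives, and the edgeR step was tested on simulated data. CPM uses TMM-scaled totals, and list scores are means of log2 CPM with a prior count of 2. TPM was used only for levels per length.

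The 20 genes with fold changes were protein-coding, 10 in each direction, and had the smallest p among those with a mean of 5 CPM or more in the higher group, no overlap between groups and the same sign by library name. From each list its 3 defining members and up to 4 with the smallest p could be named; other genes are marked as named after their values were seen. The comparison, the lists and the tests were chosen with earlier results of these data known. Replicate numbers did not pair the samples, as the closing section shows. Some list members are not reported here.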

Additional observations from a re-analysis of the deposited data

Results flagged for a closer look

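The 4 FLASH libraries were checked in 28 list scores and 36 genes. A library far from the other 3 was found in 2 scores and 11 genes. Chance alone flags about 1 in 20 such groups, but these groups share libraries and cannot be weighed against that rate as independent checks. In all but 1 case the library apart was FLASH library 4. Its interleukin-6 family score was 5.33, against 4.27 to 4.38 in the others, and its collagen processing score 5.15, against 4.88 to 4.92. Its level was 2556 CPM for Krt6a (61.4 to 445 in the others), 14.5 CPM for Plaur (4.27 to 5.41), 8.69 CPM for Slfn4 (2.90 to 3.32) and 6.5 CPM for Clec4e (1.55 to 2.36). It was 18.4 CPM for Hdc (4.27 to 4.43), 7.62 CPM for Cd300lf (2.85 to 3.63), 5.53 CPM for Il6 (0.0330 to 0.949) and 1.94 CPM for Osm (0.0659 to 0.316). For the chemokine genes it was 5.5 CPM for Cxcl1 (0.637 to 0.696) and 1.09 CPM for Cxcl2 (0 to 0.0316). The exception was Lor, at 346 CPM in FLASH library 1, the library whose file bears a sham name, against 181 to 208 CPM in the others.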

How the results depend on the processing

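Of 26 alternatives, 23 of them planned and 3 chosen after seeing the data, 19 called 0 genes. DESeq2 called 1574 genes by record and 3438 by library name, and edgeR called 41 by library name with CONV and sham alone. Leaving out 1 library at a time gave 0 to 406 calls, with 406 without CONV library 1, 89 without FLASH library 4, 1 without CONV library 3 and 0 without each of the others. The replicate block gave 15 calls, but the numbers did not pair the samples: libraries with the same number correlated at -0.411 to -0.222 after removing group means, and 0 of 6 correlated best with its own number. The 20 named genes kept their direction in all 520 values and passed the threshold in 65 of them. The 28 list medians kept their direction in 724 of 728 values, and 33 of the values moved by more than 1 SD of the CONV libraries' scores. The injury median ran from 5.26 to 7.57. The 4 reversals were basal keratinocytes at -0.04, suprabasal keratinocytes at -0.27 and barrier genes at -0.02 without CONV library 2, and suprabasal keratinocytes at -0.02 under limma-voom with quality weights. Leaving out 1 library at a time, these medians ran from -0.04 to 0.44, from -0.27 to 0.73 and from -0.02 to 1.04. The cause of these shifts was not tested. Of the 25 lists given without a median, 15 took another sign in at least 1 alternative. Counting error limits genes near 0 in sham.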

Other observations

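Of 10 oxidant-producing enzyme genes, 6 lay above sham without overlap, against 13.6% of all genes, and DESeq2 called 6 higher, against 5.68%. Duox1, a hydrogen peroxide source of epithelia, was at 19.3, 17.3 and 17.7 CPM in sham and 40.4, 52.9 and 53.3 CPM in CONV. Of 17 antioxidant genes 6 were above and 1 below, against 13.6% and 14.3% of all genes. Srxn1, which encodes the peroxiredoxin repair enzyme sulfiredoxin, was at 12.2, 14.2 and 14.6 CPM against 45, 42.5 and 46.1 CPM, with the 3 CONV libraries close together. Duox1, Srxn1 and the genes named next were chosen after their values were seen.

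Lymphocyte and interferon genes did not move as a block. Of 14 T cell genes 3 were above and 3 below, against 13.6% and 14.3% of all genes. Cd3e, a chain of the T cell receptor complex, was at 16.9, 13.4 and 14.2 CPM in sham and 6.56, 7.82 and 5.14 CPM in CONV, while Cd4 was above at 5.41, 5.92 and 3.80 CPM against 6.79, 7.68 and 12.4 CPM. Of 20 interferon genes 0 were above by record, against 13.6% of all genes, and 3 below, a share near the 14.3% of all genes. By library name 2 were above, against 16.6% of all genes. By log2 fold change 14 of the 20 were higher. At an unadjusted edgeR p under 0.05, 7 were higher and 3 lower, against 12% and 8.13% of all genes. Usp18, a brake on interferon signalling, was at 14.6, 18 and 13.1 CPM against 5.76, 6.11 and 5.79 CPM. Of 8 mast cell genes 4 were above, against 13.6% of all genes, among them Hdc, already chosen for lack of overlap. Cma1, a chymase gene of these cells, was at 7.17, 5.75 and 3.13 CPM against 11.6, 13.3 and 21.6 CPM, a smaller difference than that of Hdc. Ms4a2, a chain of their IgE receptor, overlapped.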
